A study of Homo sapiens with 16 samples.

Results

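MX1, MX2, IFI44, IFI44L, RSAD2, XAF1 and EPSTI1 are 7 of the 59428 genes in a table of raw RNA counts from 2 ovarian carcinoma cell lines. They were found by gene symbol and had been chosen as interferon-induced genes with a strong response in UWB1.289, a choice that used measured values and named no numeric threshold. OVCAR3, with intact BRCA1, and UWB1.289, with a BRCA1 mutation, were kept for 96 h with the PARP inhibitor olaparib or with its solvent DMSO. OVCAR3 received 7.5 µM and UWB1.289 received 3.5 µM, the IC50 found for each line, and each of the 4 groups had 4 replicates, 16 libraries in all. OVCAR3 grew in RPMI 1640 with bovine insulin and fetal bovine serum, and UWB1.289 in a mixture of MEGM and RPMI 1640 with less serum. Each BRCA1 state is 1 line, so BRCA1 status, line, dose and medium cannot be told apart. The labels do not say that the replicates were separate cultures, and the p-values measure the spread between these libraries.

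Interferons are secreted proteins that cells release when they sense foreign or misplaced nucleic acid. Type I and type III interferons act through receptors and the kinases JAK1 and TYK2 on transcription factors, IRF9 and STAT2 among them, that bind the interferon-stimulated response element (ISRE) near many genes. Another element of interferon-responsive genes is the gamma-activated site (GAS). MX1 and MX2 encode dynamin-like GTPases that restrict viruses, MX1 many RNA viruses and MX2 retroviruses among others. RSAD2 encodes viperin, a radical SAM enzyme that makes a chain-terminating nucleotide. IFI44 and IFI44L encode related proteins of less well defined function, XAF1 encodes a binding partner of the apoptosis inhibitor XIAP, and EPSTI1 was first described as a gene of epithelial cells that respond to stroma.

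In the annotation of GENCODE release 44 on hg38 the 7 genes lie at 5 loci, and all are protein-coding. MX2 (ENSG00000183486, chr21:41361999-41409393) and MX1 (ENSG00000157601, chr21:41420020-41470071) are neighbours on the forward strand. IFI44L (ENSG00000137959, chr1:78619902-78646145) and IFI44 (ENSG00000137965, chr1:78649796-78664078) are neighbours on the forward strand of chromosome 1. RSAD2 (ENSG00000134321, chr2:6865557-6898239) and XAF1 (ENSG00000132530, chr17:6755447-6775647) lie on the forward strand, and EPSTI1 (ENSG00000133106, chr13:42886388-42992271) on the reverse strand. RefSeq promoter windows on GRCh38.p14, which run from 250 bases before to 50 bases after an annotated start, were found for 6 of the 7 genes, 11 windows in all, and MX2 had none.

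Both strands of the windows were searched for the ISRE as GAAA, any 2 bases and GAAA again, and for the GAS as TTCNNNGAA. The ISRE was present in 5 of the 6 genes, against 4.38% of the 27305 genes with a window. It was present in 7 of their 11 windows, against 3.57% of the 35116 windows. A gene with more windows has more places for a match. Both windows of IFI44 hold the same match, and the first window of RSAD2 held no ISRE. The GAS was present in 2 of the 6, MX1 and EPSTI1, against 9.38% of genes. Of 47 other interferon-stimulated genes with a window, a list described with the pathway, 31 held the ISRE (66.0%). The stretches below hold the ISRE with 10 bases on either side, read along the gene's strand, with the element in capitals. The search leaves only the 2 middle bases of an element free, so likeness between the capitals is largely set by the search.
MX1, first window, chr21:41420559-41420588: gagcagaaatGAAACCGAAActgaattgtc
EPSTI1, chr13:42992272-42992301, reverse strand: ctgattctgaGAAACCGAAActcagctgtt
IFI44, chr1:78649761-78649790: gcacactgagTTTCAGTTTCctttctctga
RSAD2, second window, chr2:6877622-6877651: ctgtttcaacTTTCAGTTTCacatgtggaa
IFI44L, chr1:78620274-78620303: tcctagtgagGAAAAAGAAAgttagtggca
MX1, window 3, chr21:41431844-41431873: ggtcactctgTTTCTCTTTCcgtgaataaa
MX1, in its first window, and EPSTI1 shared the 2 free bases and so all 10 letters. So did IFI44 and RSAD2, where the element reads on the opposite strand. The IFI44L stretch occurs again 91 bases further on, identical over all 30 bases, so that its window holds 2 copies. In EPSTI1 the element began 50 bases before the annotated start. In IFI44 it began 18 bases before the annotated start that lies in its first window. In the first window of MX1 it began at base 12 after the annotated start. In EPSTI1 and in window 3 of MX1 a GAS match shared 3 bases with the ISRE match.

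EPSTI1 and XAF1 are shown at greater length, since EPSTI1 was the gene that fell in OVCAR3 and XAF1 the gene with no match to either element in its 2 windows. The EPSTI1 stretch, chr13:42992272-42992491 on the reverse strand, holds the 220 bases before the first annotated exon with the ISRE in capitals. The XAF1 stretch, chr17:6755197-6755446, holds the 250 bases of its second window that lie before the annotated start.
EPSTI1: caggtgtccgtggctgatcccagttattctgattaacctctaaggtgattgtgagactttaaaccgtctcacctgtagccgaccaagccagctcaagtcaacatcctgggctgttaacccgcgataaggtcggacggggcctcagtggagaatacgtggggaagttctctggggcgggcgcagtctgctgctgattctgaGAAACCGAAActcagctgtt
XAF1: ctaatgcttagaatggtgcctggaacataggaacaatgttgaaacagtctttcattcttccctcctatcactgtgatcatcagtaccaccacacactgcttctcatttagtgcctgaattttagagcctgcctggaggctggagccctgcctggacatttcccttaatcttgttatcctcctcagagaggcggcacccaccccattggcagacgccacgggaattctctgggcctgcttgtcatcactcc
A match describes the letters of a window and not the binding of a factor, and a window without a match says nothing of elements elsewhere.

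Counts were taken from QuantSeq libraries, which sample the 3′ end of each transcript. Totals ranged from 5599571 to 7730228 counts per library, with a median of 6413979.5, and 29329 genes had at least 1 count. Levels are given as CPM, counts relative to library size with TMM factors over the 16 libraries, and as mean ± SD with n = 4. They are compared between libraries of 1 gene and not between genes. The epithelial and ovarian markers, all 10 of which were found in OVCAR3, had a lower summed level with olaparib in both lines. In OVCAR3 their sum was between 4539 and 4760 CPM with DMSO and between 3346 and 3613 CPM with olaparib, and in UWB1.289 between 7428 and 8047 CPM and between 5847 and 7204 CPM. A sum is weighted towards the most abundant markers, such as KRT18. The median log2 fold change of the markers tested was -0.19 in OVCAR3 and 0.06 in UWB1.289, so the set did not fall as a whole in UWB1.289. WT1 had no count in UWB1.289 with DMSO and 4 counts over the 4 olaparib libraries, and the other 9 were found there. Of 12 immune cell markers the summed level was between 5.11 and 7.75 CPM in OVCAR3, between 8.70 and 12.9 CPM in UWB1.289 with DMSO and between 16.7 and 22.2 CPM in UWB1.289 with olaparib, and MS4A1 and NKG7 were at 0 in every group. Fibroblast and endothelial markers summed to between 24.1 and 31.2 CPM with DMSO and between 33.2 and 40.2 CPM with olaparib in OVCAR3, and to between 49.0 and 70.9 CPM and between 33.1 and 40.5 CPM in UWB1.289, with COL3A1 and LUM at 0 in every group. BRCA1 was at 43.7 ± 5.01 CPM in OVCAR3 and 24.4 ± 3.04 CPM in UWB1.289 with DMSO. PARP1, a target of the drug, was at 271 ± 5.65 CPM in OVCAR3 and 297 ± 31.8 CPM in UWB1.289 with DMSO, and PARP2 at 41.2 ± 4.08 and 48.6 ± 7.02 CPM.

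In UWB1.289 the 7 genes together took up 0.00893% of all counts with DMSO and 0.0744% with olaparib. Their summed level was between 67.2 and 108.7 CPM in the DMSO libraries and between 653 and 837 CPM in the olaparib libraries. In OVCAR3 the sum was between 51.1 and 56.9 CPM with DMSO and between 55.9 and 66.2 CPM with olaparib, 0.00536% and 0.00624% of all counts. All 4 olaparib libraries of UWB1.289 thus lay far above the 12 other libraries, and within OVCAR3 the groups overlapped. In such bulk samples a change in the number of expressing cells and a change in RNA per cell cannot be told apart. Since the genes were chosen for their response in UWB1.289, their values in that contrast are a description and were not tested.

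**Figure D1:**
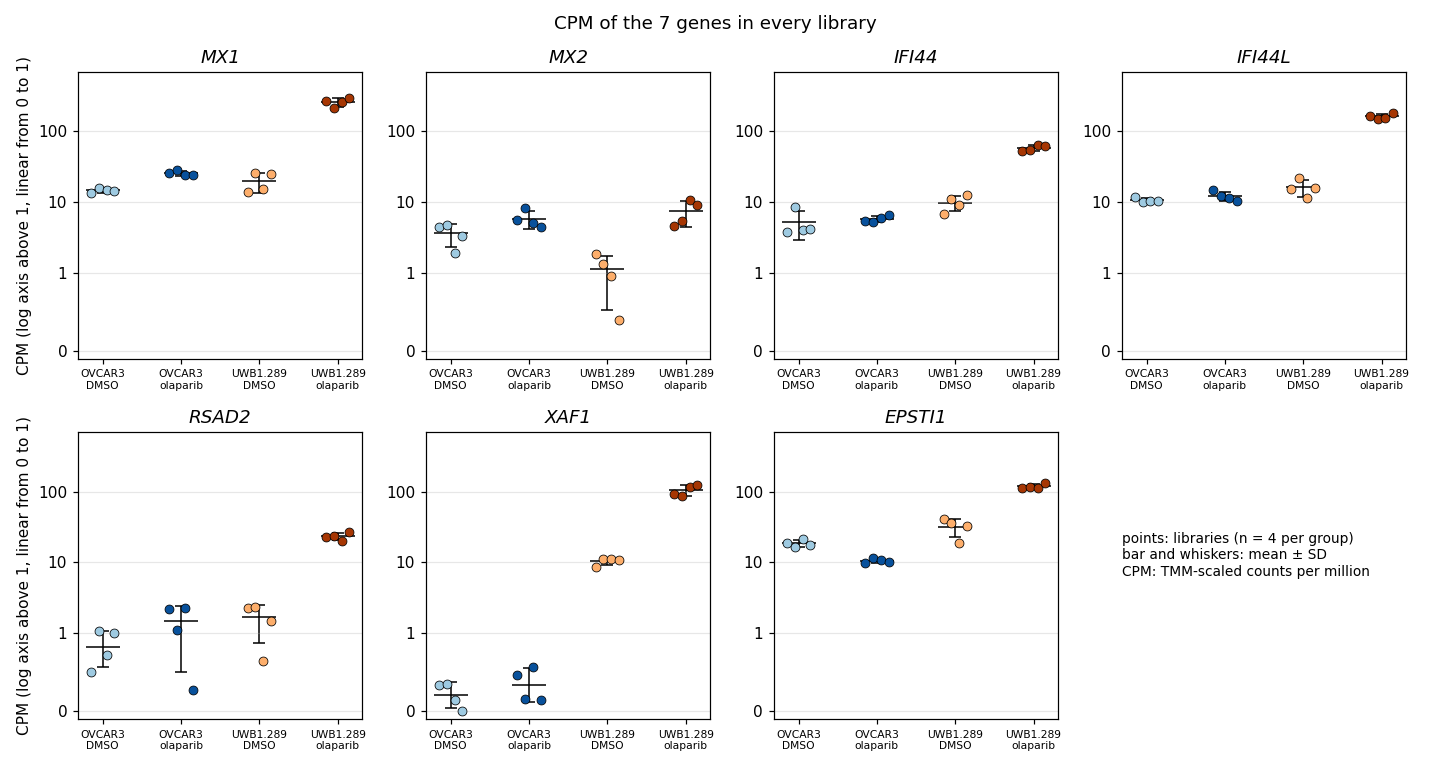
CPM of each of the 7 genes (vertical axis, logarithmic above 1) in the 16 libraries, grouped by line and treatment, with points for libraries and a bar and whiskers for mean ± SD, n = 4. UWB1.289 with olaparib is the highest group for every gene, MX2 overlaps between OVCAR3 and UWB1.289 with olaparib, XAF1 lies below 1 CPM in OVCAR3, and EPSTI1 is lower with olaparib than with DMSO in OVCAR3.

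Among the antiviral GTPases, MX1 had 91, 153, 96 and 189 counts in the 4 UWB1.289 libraries with DMSO and 1657, 1205, 1612 and 1943 with olaparib. This is a step from 19.8 ± 6.22 to 260 ± 35.0 CPM and a log2 fold change of 3.71 (SE 0.152). The lowest olaparib library, at 214 CPM, stood well above the highest DMSO library, at 25.5 CPM. MX2 had 12, 8, 6 and 3 counts with DMSO and 28, 30, 67 and 59 with olaparib, and its olaparib libraries fell into a lower and a higher pair. Its log2 fold change was 2.74 (SE 0.377), with the largest SE of the 7. The groups did not overlap for MX2 either, with at most 1.80 CPM with DMSO and at least 4.61 CPM with olaparib.

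IFI44 had 45, 66, 57 and 94 counts with DMSO and 319, 308, 408 and 414 with olaparib, from 9.80 ± 2.44 to 58.9 ± 6.28 CPM. Its log2 fold change was 2.58 (SE 0.148). Its neighbour IFI44L had 102, 131, 72 and 120 counts with DMSO and 999, 860, 967 and 1208 with olaparib, from 16.1 ± 4.27 to 164 ± 14.6 CPM, a log2 fold change of 3.35 (SE 0.133). IFI44L thus had the higher value of the pair, a difference that was not tested.

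RSAD2, the gene of viperin, had 15, 14, 4 and 11 counts with DMSO and 139, 134, 125 and 175 with olaparib. Its level went from 1.67 ± 0.795 to 23.4 ± 2.78 CPM, a log2 fold change of 3.80 (SE 0.236), the highest of the 7. XAF1 had 57, 67, 69 and 81 counts with DMSO and 571, 491, 741 and 812 with olaparib, from 10.3 ± 1.20 to 106 ± 18.1 CPM, a log2 fold change of 3.36 (SE 0.136). EPSTI1 had 272, 214, 118 and 251 counts with DMSO and 684, 649, 717 and 868 with olaparib. Its level went from 32.1 ± 9.45 to 119 ± 9.30 CPM, and its log2 fold change of 1.89 (SE 0.147) was the lowest of the 7.

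By size of log2 fold change the 7 genes held ranks 3, 4, 10, 11, 18, 25 and 68 of the 12748 genes tested in UWB1.289, and 61 genes that are not among them lay above EPSTI1. A gene was called when its adjusted p was below 0.1, its change beyond 2-fold and its average normalized count above 10. By this rule 1.93% of genes were called higher in UWB1.289, and in 7.7% the lowest olaparib library exceeded the highest DMSO library. All 7 genes met both, which follows from how they were chosen. IFIT1 at 3.90 and CCL5 at 3.70 stood directly beside RSAD2 and MX1 in the order of log2 fold changes, OAS2 at 3.35 beside IFI44L, and IFIT2 at 2.58 beside IFI44. These genes were named after their values were seen.

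The replicates of a group varied in part together. UWB1.289 DMSO replicate 3 had the lowest summed level of its group, 67.2 CPM against 89.3 to 108.7 CPM in the other 3, and was the lowest for IFI44L, RSAD2 and EPSTI1 but not for MX1, IFI44 or XAF1. UWB1.289 olaparib replicate 4 had the highest sum, 837 CPM, and was the highest for MX1, IFI44L, RSAD2, XAF1 and EPSTI1. After the group means were removed, 17 of the 21 pairs of genes had a correlation above 0 over the 16 libraries, with a median of 0.21. The highest were IFI44L with RSAD2 at 0.60, IFI44L with EPSTI1 at 0.59 and MX1 with IFI44L at 0.58, and MX1 with MX2 was at -0.18. These are descriptions over libraries that share depth and handling within a group, and counts below 10 add counting noise for MX2, RSAD2 and XAF1.

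OVCAR3 gives the test of the 7 genes on libraries outside the UWB1.289 response for which they were chosen. That choice was made with earlier results of these data known. MX1, the restriction factor of many RNA viruses, rose with olaparib. It had 81, 90, 104 and 101 counts with DMSO and 164, 180, 171 and 175 with olaparib, from 14.6 ± 0.9998 to 25.4 ± 1.85 CPM, and the groups did not overlap. The increase was 0.80 in log2 units (SE 0.126, edgeR quasi-likelihood adjusted p = 8.57e-05), or 1.74-fold. EPSTI1 fell in the same libraries. It had 113, 94, 149 and 124 counts with DMSO and 64, 73, 75 and 75 with olaparib, from 18.6 ± 2.16 to 10.5 ± 0.622 CPM, and again no library of one group reached into the other. Its log2 fold change was -0.82 (SE 0.145, edgeR adjusted p = 3.08e-04), 0.568-fold.

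MX2 passed the threshold on the adjusted p in OVCAR3, though not in every setting. It had 27, 27, 13 and 23 counts with DMSO and 36, 52, 36 and 32 with olaparib, from 3.58 ± 1.30 to 5.79 ± 1.62 CPM, and the groups overlapped in CPM. The log2 fold change was 0.70 (SE 0.291, edgeR adjusted p = 0.0853). It missed the threshold without OVCAR3 DMSO replicate 3 (0.49, edgeR adjusted p = 0.251), DMSO replicate 4 (0.67, edgeR adjusted p = 0.169), olaparib replicate 1 (0.72, edgeR adjusted p = 0.125) or olaparib replicate 2 (0.50, edgeR adjusted p = 0.282), and in the fit to all 16 libraries (edgeR adjusted p = 0.122).

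No change was detected for the IFI44 pair. IFI44 had 23, 49, 28 and 29 counts with DMSO and 35, 34, 42 and 48 with olaparib. The value of 0.20 in log2 units (SE 0.262, edgeR adjusted p = 0.630) had a 95% interval from -0.31 to 0.71. The DMSO group was spread by replicate 2, whose 8.56 CPM exceeded every olaparib library, and without it the log2 fold change was 0.54 (edgeR adjusted p = 0.122). IFI44L had 71, 58, 72 and 73 counts with DMSO and 95, 78, 80 and 76 with olaparib. The value of 0.19 in log2 units (SE 0.162, edgeR adjusted p = 0.435) had a 95% interval from -0.13 to 0.51. Both intervals end below the 2-fold change that the call requires.

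RSAD2 and XAF1 did not reach the count filter in OVCAR3 and were not tested there. RSAD2 had 3, 6, 5 and 7 counts with DMSO and 14, 7, 16 and 2 with olaparib, so the olaparib libraries lay on both sides of the DMSO libraries. XAF1 had 2, 2, 1 and 0 counts with DMSO and 3, 1, 4 and 1 with olaparib. Over the 4 libraries RSAD2 went from 21 to 39 counts, against 44 to 573 in UWB1.289.

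Of the 5 genes tested in OVCAR3, 0 were called with the 2-fold threshold by edgeR and 0 by DESeq2, where 5.23% of all 13031 genes were. On the adjusted p alone 3 of the 5 passed (MX1 and MX2 higher, EPSTI1 lower), and the same number had an unadjusted p below 0.05. Over all genes 31.5% passed on the adjusted p alone, 15.5% higher and 16% lower, and the groups did not overlap in 25.7%, 12.4% higher and 13.3% lower. Olaparib moved many genes in OVCAR3 by less than 2-fold, and the count of 3 in 5 is to be read against that share. Beside these values 2 of the 10 epithelial and ovarian markers were called in OVCAR3, both lower, the keratins KRT8 (-1.05, SE 0.102, edgeR adjusted p = 2.26e-07) and KRT18 (-1.02, SE 0.0722, edgeR adjusted p = 2.72e-09). On the adjusted p alone 5 of the 10 were lower and 2 higher. The 2 higher were WFDC2 (0.81, SE 0.0692, edgeR adjusted p = 4.46e-08) and the keratin KRT7 (0.19, SE 0.0804, edgeR adjusted p = 0.0948). The part of these markers in the result was not tested.

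**Figure D2:**
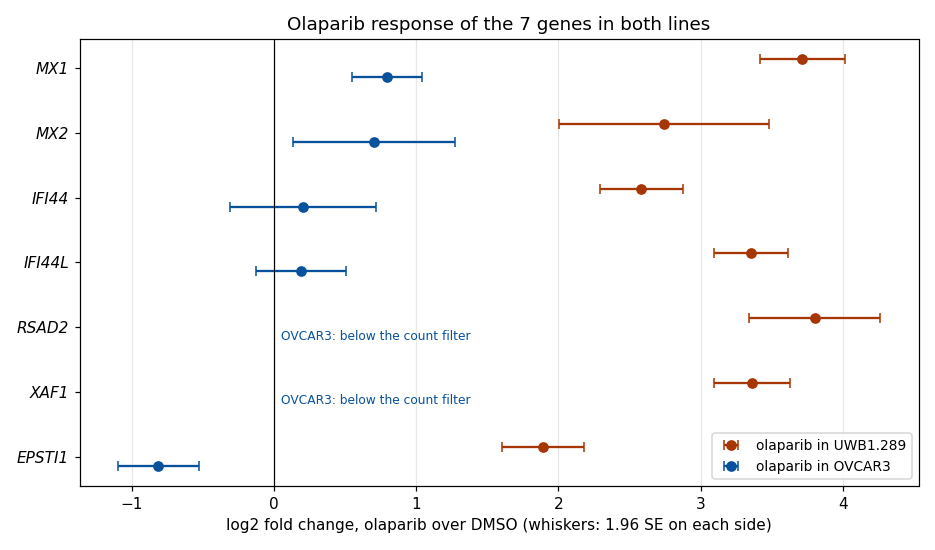
Log2 fold change of olaparib over DMSO (horizontal axis) with its 95% interval for the 7 genes in UWB1.289 and OVCAR3, each from 4 libraries per group. In UWB1.289 the values run from 1.89 to 3.80, in OVCAR3 from -0.82 to 0.80, and RSAD2 and XAF1 have no OVCAR3 value since they did not reach the count filter.

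The difference of the olaparib response between the lines, UWB1.289 minus OVCAR3 in a fit to all 16 libraries, holds the contrast by which the genes were chosen and is given with no test. Of all genes 3.66% were called in it. On the log2 scale it was 2.92 (SE 0.210) for MX1, 2.04 (SE 0.511) for MX2, 2.38 (SE 0.294) for IFI44, 3.17 (SE 0.206) for IFI44L, 3.00 (SE 0.624) for RSAD2 and 2.71 (SE 0.219) for EPSTI1. No value is given for XAF1, whose fitted difference depends on the prior count, as its OVCAR3 DMSO libraries were at the floor of at most 3 counts. EPSTI1 had the smallest response in UWB1.289 but not the smallest difference, as its response in OVCAR3 had the opposite sign.

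The levels without drug were not alike in the lines. XAF1 was the clearest case, with 57 to 81 counts in the UWB1.289 libraries with DMSO and 0 to 2 counts in those of OVCAR3. The mean XAF1 level of UWB1.289 with DMSO was 19.7-fold the floor of 3 counts per library in OVCAR3 with DMSO. With olaparib it was 202-fold that floor. The lowest UWB1.289 library was at 16.4-fold that floor with DMSO and at 166-fold with olaparib. All OVCAR3 libraries with DMSO lay below the floor, and the ratios allow for no counting error in UWB1.289. MX2 had the opposite order, with 3.58 ± 1.30 CPM in OVCAR3 and 1.12 ± 0.596 CPM in UWB1.289, which is -1.67 on the log2 scale (SE 0.404). The MX2 groups did not overlap, a separation with UWB1.289 lower that 34.9% of genes showed. The other 4 genes in the fit were higher in UWB1.289, by 0.44 (SE 0.171) for MX1, 0.95 (SE 0.248) for IFI44, 0.59 (SE 0.174) for IFI44L and 0.78 (SE 0.162) for EPSTI1 on the log2 scale. The MX1, IFI44, IFI44L and EPSTI1 groups overlapped between the lines with DMSO. RSAD2 did not reach the filter in this comparison, with 44 counts over the UWB1.289 DMSO libraries and 21 over those of OVCAR3. These values share the UWB1.289 DMSO libraries with the choice of the genes and were not tested. Of all genes 38.4% were called between the lines.

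Ordered over the 4 groups, UWB1.289 with olaparib was the highest for all 7 genes and, except for MX2, did not overlap the next group. For MX2 the highest OVCAR3 olaparib library, at 8.10 CPM, lay above the lower pair of UWB1.289 olaparib libraries, at 4.61 and 5.32 CPM, and UWB1.289 with DMSO was the lowest group. For MX1 the 3 lower groups formed a chain of overlapping neighbours, from OVCAR3 with DMSO through UWB1.289 with DMSO to OVCAR3 with olaparib. For IFI44L and RSAD2 the order was OVCAR3 with DMSO, OVCAR3 with olaparib and UWB1.289 with DMSO, again with overlaps between neighbours. XAF1 had UWB1.289 with DMSO clear of both OVCAR3 groups, and IFI44 had it clear of OVCAR3 with olaparib but not of replicate 2 of OVCAR3 with DMSO. EPSTI1 alone had OVCAR3 with olaparib as its lowest group, clear of OVCAR3 with DMSO, which overlapped UWB1.289 with DMSO.

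The makeup of the summed counts moved as well. EPSTI1 went from 35.4% of the counts of the 7 genes with DMSO to 16.04% with olaparib in UWB1.289, and from 34.9% to 17.2% in OVCAR3. MX1 went from 21.9% to 35.3% in UWB1.289 and from 27.3% to 41.3% in OVCAR3. In UWB1.289 both genes rose and MX1 rose more, while in OVCAR3 EPSTI1 fell and MX1 rose. XAF1 held 11.3% and 14.4% of these counts in UWB1.289 with DMSO and with olaparib and below 1% in OVCAR3. These shares sum the libraries of a group and depend on all 7 genes together.

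The interferon pathway around these genes was described with 5 lists of 93 genes in all. Of all genes tested, 246 of 12748 were called higher in UWB1.289 and 378 of 13031 in OVCAR3. Of the 12 interferon ligands none reached the filter in either line. Their summed counts were 5 with DMSO and 22 with olaparib over the UWB1.289 libraries, and 11 and 15 over those of OVCAR3. IFNL1, a type III interferon, made up 14 of the 22 with 9, 0, 3 and 2 counts. The receptor and signalling genes had 2 of 11 called higher in UWB1.289, IFNGR1 among them, and 0 of 12 in OVCAR3. On the adjusted p alone 7 of the 12 were higher in OVCAR3, as were 15.5% of all genes. IFNGR1, a chain of the interferon gamma receptor, rose by 1.09 in log2 units in UWB1.289 (SE 0.254, edgeR adjusted p = 0.00700).

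Of the interferon regulatory factors, 2 of 5 were called higher in UWB1.289, IRF7 by 1.65 (SE 0.121, edgeR adjusted p = 1.22e-09) and IRF1 by 1.42 (SE 0.130, edgeR adjusted p = 5.35e-08). IRF7 amplifies the production of type I interferon, and IRF1 takes part in the interferon gamma response. In OVCAR3 0 of 4 were called, with IRF7 at 0.77 (edgeR adjusted p = 0.00200) and IRF1 at 0.72 (edgeR adjusted p = 6.34e-05). Of the feedback inhibitors, 1 of 7 was called higher in UWB1.289 and 0 of 7 in OVCAR3. The one was USP18, which restrains the type I receptor and removes ISG15 from proteins, at 1.499 (SE 0.178, edgeR adjusted p = 3.15e-06), against -0.02 (edgeR adjusted p = 0.962) in OVCAR3.

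The list of other interferon-stimulated genes is the largest of the 5. In UWB1.289 40 of 51 were called higher and 0 lower, all 51 passed on the adjusted p alone, as did 7.77% of all genes, and their median log2 fold change was 1.91, against -0.00 over all genes tested. IFIT1 (3.90, SE 0.142, edgeR adjusted p = 1.69e-14) and IFIT3 (3.52, SE 0.133, edgeR adjusted p = 2.14e-14), of a family of proteins that bind foreign RNA, rose in the same libraries. The chemokine CXCL10 had 1 to 3 counts with DMSO and 86 to 110 with olaparib. CXCL11, a chemokine for the same receptor, went from 17 to 186 counts per group (3.54, SE 0.396, edgeR adjusted p = 1.36e-06), and TRIM22, an antiviral ubiquitin ligase, from 9 to 103 (3.55, SE 0.591, edgeR adjusted p = 2.92e-04). In OVCAR3 4 of 44 were called higher and 0 lower, and the median was 0.19, against -0.01 over all genes. On the adjusted p alone 15 of the 44 were higher there, as were 15.5% of all genes. The 4 were IFI27 (1.27, SE 0.204, edgeR adjusted p = 1.04e-04), OAS3 (1.16, SE 0.133, edgeR adjusted p = 2.32e-06), BST2 (1.01, SE 0.242, edgeR adjusted p = 0.00425) and IFIT1, whose groups overlapped. Over the 5 lists 45 of 74 tested genes were called higher in UWB1.289 and 4 of 67 in OVCAR3, with 0 lower in both, and the filter left out 19 and 26. Over all genes 246 of 12748 and 378 of 13031 were called higher. The genes of the lists were chosen with earlier results of these data known.

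Beside the rise of the 7 genes in UWB1.289, CD14 rose among the immune cell markers, from 31, 20, 16 and 16 counts with DMSO to 50, 57, 44 and 35 with olaparib, which is 1.28 in log2 units (SE 0.275, edgeR adjusted p = 0.00374). PTPRC, the common leukocyte marker, had 162 counts over the UWB1.289 DMSO libraries and 195 over the olaparib libraries (log2 fold change 0.37, edgeR adjusted p = 0.386). COL1A2, a fibroblast collagen, fell in the same libraries by 1.03 in log2 units (SE 0.128, edgeR adjusted p = 6.24e-06). The other fibroblast and endothelial markers tested there were not called, with COL1A1 at 0.22, PECAM1 at 0.50 and CDH5 at -0.48. In OVCAR3 COL1A1 was the 1 marker of that list tested, at 0.57 (SE 0.129, edgeR adjusted p = 0.00296), and was not called. Of the 9 epithelial and ovarian markers tested in UWB1.289, 0 were called, with 1 higher and 2 lower on the adjusted p alone. The part of these markers in the result was not tested.

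**Figure D3:**
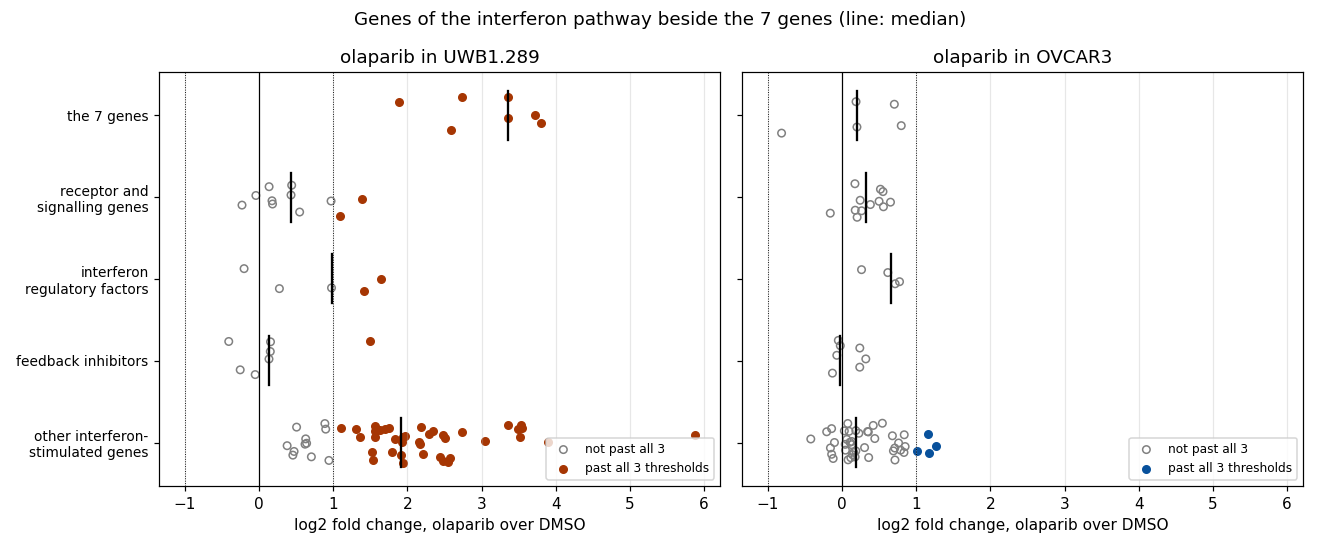
Log2 fold change of olaparib over DMSO (horizontal axis) for the 7 genes and for 4 lists of the interferon pathway in UWB1.289 and OVCAR3, with a point for each gene tested, filled where it passed all 3 thresholds, and a line at the median of each list. The 7 genes have a median of 3.35 in UWB1.289 and 0.20 in OVCAR3, the other interferon-stimulated genes 1.91 and 0.19, and the dotted lines mark a 2-fold change.

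The relatives and partners of the 7 genes were described by the same rule, and no test compared the lists. Among 7 dynamin superfamily genes other than MX1 and MX2, 0 were called in UWB1.289, by edgeR, where 1 was lower on the adjusted p alone. In OVCAR3 DNM3 rose by 1.19 (SE 0.156, edgeR adjusted p = 1.12e-05) and DNM1 by 1.02 (SE 0.207, edgeR adjusted p = 0.00111), genes of endocytic dynamins. XIAP, the inhibitor that XAF1 binds, was at 159 ± 9.08 CPM with DMSO and 136 ± 4.60 CPM with olaparib in UWB1.289, which is -0.22 in log2 units (SE 0.0788, edgeR adjusted p = 0.0796), and changed by -0.02 in OVCAR3 (edgeR adjusted p = 0.900). Of the 8 partners tested BIRC3, a related inhibitor of apoptosis induced through NFkB, was the one called in either line. It had 170 to 266 counts with DMSO and 610 to 867 in UWB1.289 with olaparib (1.98 in log2 units, SE 0.112, edgeR adjusted p = 1.51e-11), and 0, 4, 4 and 4 counts against 38, 32, 44 and 36 in OVCAR3 (3.51, SE 0.417, edgeR adjusted p = 3.46e-06).

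The response was also compared with that of the genes beside the 5 loci, the 3 nearest protein-coding genes on each side. Of the 16 neighbours tested in UWB1.289, 1 was called, and this was CMPK2, which was higher, as were 1.93% of all genes. CMPK2 encodes a mitochondrial nucleotide kinase and is itself interferon-induced. It lies on the opposite strand and overlaps the 5′ end of RSAD2. It had 25, 21, 10 and 20 counts with DMSO and 204, 143, 225 and 226 with olaparib, which is 3.49 in log2 units (SE 0.197, edgeR adjusted p = 1.51e-11) beside 3.80 for RSAD2. In OVCAR3, where CMPK2 had 20 and 36 counts per group and was not tested, 2 of 14 neighbours were called, both lower, as were 304 of 13031 genes. On the adjusted p alone 7 of the 14 were lower and 1 higher, against 16% and 15.5% of all genes. DNAJC15, next to EPSTI1, changed by -1.56 (SE 0.372, edgeR adjusted p = 0.00423), though its groups overlapped. TMPRSS2, next to MX1, changed by -1.72 (SE 0.376, edgeR adjusted p = 0.00210). DNAJC15 did not share the rise of EPSTI1 in UWB1.289, where its log2 fold change was -0.07 (SE 0.117).

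How strand was treated in counting is not stated, and 4 of the 7 genes (MX1, RSAD2, XAF1 and EPSTI1) overlap an annotation on the opposite strand. TMPRSS2 overlaps the 3′ end of the longest MX1 annotation on the opposite strand. It had 95 counts with DMSO and 30 with olaparib over the OVCAR3 libraries and 0 in UWB1.289, against 376 and 690 counts of MX1 in OVCAR3. CMPK2 overlaps RSAD2 away from its 3′ end, and the annotations that overlap XAF1 and EPSTI1 had no count. A lncRNA annotation that also overlaps MX1, away from its 3′ end, was not analysed here.

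**Figure D4:**
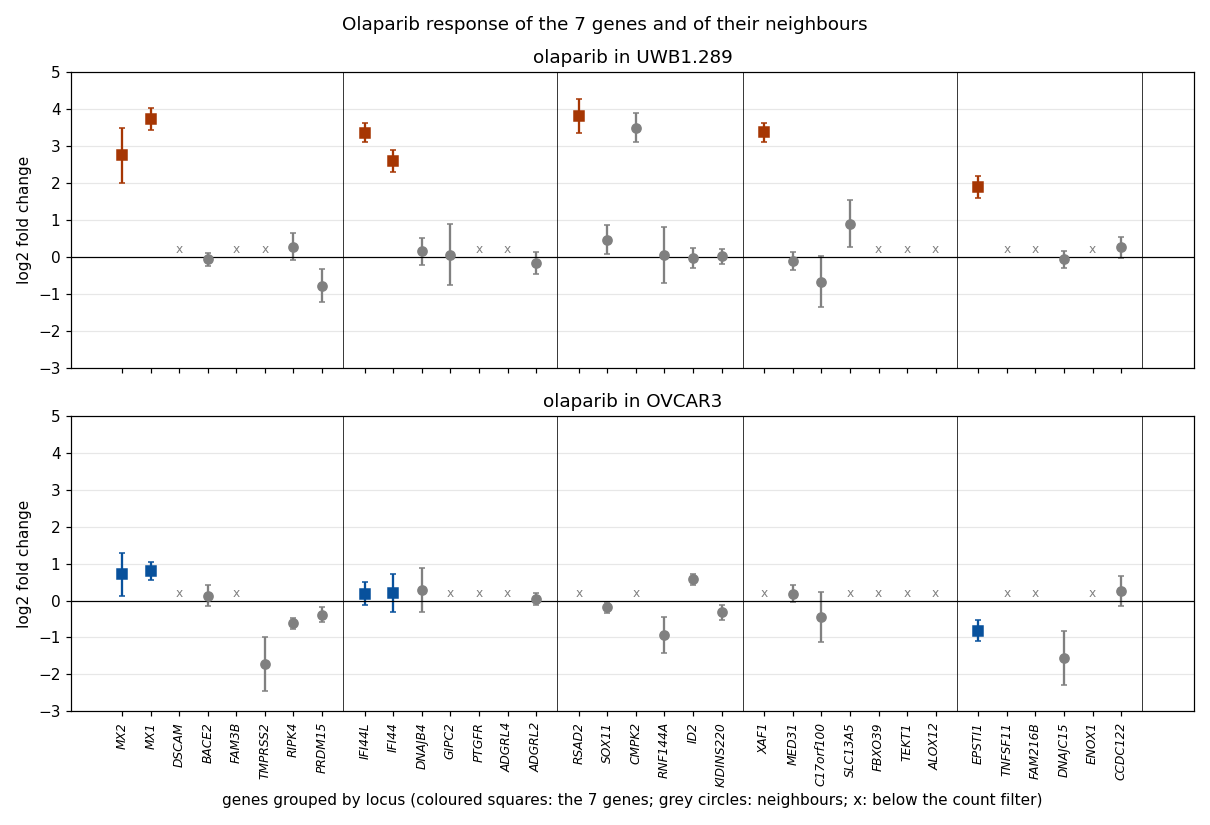
Log2 fold change of olaparib over DMSO (vertical axis) with its 95% interval for the 7 genes (coloured squares) and the nearest protein-coding genes (grey circles) at 5 loci, in UWB1.289 above and OVCAR3 below, with a cross for a gene below the count filter. In UWB1.289 CMPK2, at 3.49 beside RSAD2, is the one neighbour past all thresholds, and in OVCAR3 TMPRSS2 and DNAJC15 are past them, both lower.

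Over the 16 libraries the genes most like the mean log2 CPM of the 7, among 14236 searched, were SP100 (Pearson r = 0.986), IFIT2 (0.981), IFIT1 (0.975), DDX60 (0.973), DDX60L (0.972), B3GNT7 (0.970), OAS1 (0.968), ISG15 (0.965), OAS3 (0.964) and SAMHD1 (0.964). Of these 8 stood in the list of other interferon-stimulated genes, and B3GNT7 and SAMHD1 did not. The libraries fall into 4 groups and the UWB1.289 olaparib group lies apart, so these values describe a shared group pattern. The response of the nearest genes in OVCAR3 was not uniform, with SP100 at 0.06 (SE 0.132, edgeR adjusted p = 0.775) and ISG15 at 0.84 (SE 0.116, edgeR adjusted p = 2.00e-05).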

How the data were processed

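RNA was measured in 16 libraries of 2 cell lines. The authors prepared QuantSeq 3′ libraries, used BBDuk to trim single-end reads, STAR 2.7.9a (2-pass) to place them on hg38, and featureCounts 2.0.0 with GENCODE release 38 to count them. The deposited values are raw counts, and the treatment of strand, of reads with several matches and of overlapping genes is not stated. Every library entered the analysis. Coordinates are from GENCODE release 44, and promoter windows from RefSeq (GRCh38.p14).

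The test was that of edgeR 4.0.16 under R 4.3.3 (TMM scaling, the filterByExpr filter, the quasi-likelihood F test and p-values adjusted by Benjamini and Hochberg over all genes tested), in each line on its own, between the lines on the DMSO libraries, and for the difference of the olaparib effect over all 16 libraries. Calls required an average normalized count above 10, a log2 fold change beyond 1 in size and an adjusted p below 0.1. SE was computed as the log2 fold change over the square root of F, and log2 CPM used a prior count of 2. Totals of 5599571 to 7730228 counts per library leave a large counting error on a gene near 10 counts. Groups in which no library exceeded 3 counts for a gene were treated as at the floor.

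The 7 genes and all lists (interferon ligands, receptor and signalling genes, interferon regulatory factors, feedback inhibitors, other interferon-stimulated genes, dynamin relatives, XIAP and its partners, and markers of epithelial, immune, fibroblast and endothelial cells) were chosen with earlier results of these data known. The genes named were all 7, of each list the called genes whose groups did not overlap, up to 5 per line by size of change, called neighbours and CMPK2, the 10 genes most like the 7, and PARP1, PARP2 and BRCA1. Other names were added after seeing the values, and 1 gene under this rule is not reported here. None of the 24 pairs of replicate libraries held identical counts (lowest chi-square per gene 3.03). The scripts were tested on simulated counts. Alternatives were DESeq2 1.42.0, its size factors, no filter on low counts, other thresholds, a fit to all 16 libraries, a block for the replicate number, leaving out each library, and 0.5 as the prior count.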

Additional observations from a re-analysis of the deposited data

Results flagged for a closer look

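In 32 groups of 4 libraries, 2 values of the 7 genes stood apart from the rest of their group by more than Dixon's 95% limit, which chance passes in about 1 group in 20. IFI44 was at 8.56 CPM in OVCAR3 DMSO replicate 2, against 3.79 to 4.15 CPM in the other 3. EPSTI1 was at 133 CPM in UWB1.289 olaparib replicate 4, against 113 to 115 CPM in the other 3.

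By the edgeR interaction contrast, UWB1.289 minus OVCAR3, the olaparib effect was called different in 17 of the genes named beside the 7. These 17 were named using values of the same libraries, so the 3.66% called among all 14243 genes tested is no fair comparison. Of them 9 were named from a list or as a neighbour after a call in at least 1 line, so their differences are given with no test. The difference was positive on the log2 scale for IFIT1 (2.73, SE 0.359), IFIT3 (2.81, SE 0.209), TRIM22 (3.70, SE 0.918), OAS3 (1.32, SE 0.159) and USP18 (1.52, SE 0.331). It was also positive for CMPK2, the neighbour of RSAD2 (2.74, SE 0.566), and for DNAJC15, the neighbour of EPSTI1 that fell in OVCAR3 (1.501, SE 0.342). It was negative for BIRC3 (-1.53, SE 0.398) and DNM3 (-1.54, SE 0.183). TRIM22 and CMPK2 did not reach the count filter in OVCAR3, so their differences rest on low counts there. The other 8 were named as being most like the 7 genes over these same libraries, so their values are a description. They were 2.71 for OAS1, 2.31 for DDX60, 2.20 for B3GNT7, 1.75 for IFIT2, 1.71 for DDX60L, 1.47 for SP100, 1.45 for ISG15 and 1.31 for SAMHD1 on the log2 scale.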

How the results depend on the processing

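No log2 fold change of the 7 genes changed its sign under the alternatives run. Of 402 single-gene values under an alternative, 392 held. For olaparib in OVCAR3 this meant the same side of the threshold on the adjusted p. For the other values it meant a move smaller than the spread between replicates. Of 151 counts of called genes 140 stayed within 1.5 times. Without the fold-change threshold, counts of called genes were 4066 in OVCAR3 (1999 higher, 2067 lower), 1760 in UWB1.289 (983 higher, 777 lower), 10497 between the lines with DMSO and 1521 for the difference between the lines. Under the same alternative 27 pathway genes and 8 neighbours were called in OVCAR3, 3 neighbours in UWB1.289, and 3 of the 7 genes in OVCAR3. With all 16 libraries in the fit 1 neighbour was called in OVCAR3.

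Leaving out each library in turn gave 654 to 743 called genes in OVCAR3, 260 to 316 in UWB1.289, 5100 to 5221 between the lines and 451 to 530 for the difference, with 3 to 4 and 44 to 47 pathway genes and 2 to 3 and 1 to 2 neighbours in OVCAR3 and UWB1.289, and 0 of the 7 genes in OVCAR3. A second neighbour was called in UWB1.289 without DMSO replicate 2 or olaparib replicate 3. Over all alternatives the log2 fold change in OVCAR3 lay between 0.75 and 0.83 for MX1 and between -0.87 and -0.73 for EPSTI1, both past the threshold on the adjusted p throughout. For MX2 it lay between 0.49 and 0.86, with adjusted p from 0.0343 to 0.282. In UWB1.289 the lowest and highest values were 3.57 and 3.85 for MX1, 2.43 and 3.09 for MX2, and 1.70 and 2.03 for EPSTI1. The IFI44 difference between the lines was 2.04 without OVCAR3 DMSO replicate 2. With a prior count of 0.5 the log2 CPM of XAF1 in OVCAR3 was -2.10 with DMSO and -1.46 with olaparib, against -1.02 and -0.71. The causes were not tested.

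The replicate numbers of DMSO and olaparib libraries were not taken as pairs. Deviations of same-numbered libraries correlated at 0.084 to 0.144 in UWB1.289 and at 0.025 to 0.103 in OVCAR3. In UWB1.289 every DMSO library was closest to the olaparib library of its own number, and in OVCAR3 3 of 4 were. With the replicate number as a block 688 genes were called in OVCAR3, 294 in UWB1.289, 5145 between the lines and 537 for the difference, and in OVCAR3 the adjusted p was 1.92e-04 for MX1, 0.0555 for MX2 and 6.73e-04 for EPSTI1, so no call of the 7 genes changed.

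Depth limits RSAD2 and XAF1 in OVCAR3 and MX2 in UWB1.289 with DMSO, where libraries held 0 to 16 counts.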
